A study of Mus musculus with 3 samples.

Results

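A total of 2870 H3K4me3 regions on chromosomes 1 to 19 had H3K27me3 across 1 of their ends and not the other. They were chosen by the positions of the called regions: exactly 1 of the first and last base pair of the H3K4me3 region lay in a called H3K27me3 region, and the H3K4me3 region was not covered throughout. They made up 13.6% of the 21098 H3K4me3 regions on these chromosomes, and 40.3% of those that shared any base pair with H3K27me3. The whole series held 21998 H3K4me3 and 117512 H3K27me3 regions. The end under H3K27me3 is called the covered end below, and the other the free end.

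H3K4me3 is trimethylation of lysine 4 of histone H3. It is laid down at promoters by complexes of the SET1 and MLL families, and it is found at active promoters and at promoters held ready for use. H3K27me3, trimethylation of lysine 27, is laid down by Polycomb repressive complex 2 and accompanies silencing of developmental genes. A promoter that carries both is called bivalent, a state well known from stem cells. H3K27me3 often spreads over broad stretches of chromatin, while H3K4me3 mostly stays close to CpG-rich promoters, so the place where H3K27me3 stops inside an H3K4me3 region is a border between the marks.

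Both marks were measured by chromatin immunoprecipitation and sequencing (ChIP-seq) in neurospheres, floating cultures grown from neural stem cells of the subventricular zone of the brain. The cells came from male wild-type mice of the strain C57BL/6, with no treatment named in the labels. There was 1 library for each mark, and an input library that was not used here. No value below therefore has a replicate error, the cultures were bulk, and both marks at a place need not sit in the same cell or on the same allele. Where a spread is given, it is the SD over the 19 chromosomes, which share the library and are not biological replicates. Read depth is not given in the sources used here, and lack of H3K27me3 at an end says only that no region was called there. Positions are those of build mm9, counted from 1. Gene positions on that build were not used here, so regions are named by position only, and which end faces the transcribed side of a gene was not analysed here.

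H3K27me3 usually went deep into the H3K4me3 region. The shared length had a median of 960.5 bp (interquartile range 598 to 1516.75 bp), and the covered share of the H3K4me3 region had a median of 70.9% (38.6 to 89.1%). Of the 2870 regions, 1928 (67.2%, 95% Wilson interval 65.4 to 68.9%) had H3K27me3 on 50% or more of their base pairs and 670 (23.3%, 21.8 to 24.9%) on 90% or more. At the shallow end, 217 regions (7.56%, 6.65 to 8.59%) shared less than 200 bp and 200 regions (6.97%, 6.09 to 7.96%) were covered over less than 10%. Intervals of a share treat neighbouring regions as independent and cover counting error only. These values belong to the rule that chose the regions and are a description.

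The stretch of H3K4me3 left without H3K27me3 before the free end was short in many cases. Its median was 371 bp (interquartile range 120 to 1026 bp). In 642 regions (22.4%, 95% interval 20.9 to 23.9%) it was at most 100 bp. In 737 regions (25.7%, 24.1 to 27.3%) it was over 1000 bp. A single H3K27me3 region touched the H3K4me3 region in 2474 cases (86.2%). The other 396 held at least 1 further H3K27me3 region inside, and 27 of these were touched by 3 or more.

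The rule has no length limit, and borders of called regions decide it base by base. Just inside it, a region on chromosome 3 (108011794 to 108015186) shared 1 bp at its higher end. Its free end lay 13 bp from another H3K27me3 region. A region on chromosome 4 (57834434 to 57835202) shared 2 bp, and a region on chromosome 14 (9241159 to 9242033) shared 3 bp. On the other border, the free end of a region on chromosome 5 (101147744 to 101149445, 90.7% covered) lay directly beside an H3K27me3 region, with 0 bp between. On chromosome 11 (35858954 to 35860011) and chromosome 17 (74058213 to 74060328) 1 bp lay between. Just outside, regions on chromosome 16 (30596635 to 30597833) and chromosome 4 (55306785 to 55307950) shared no base pair with the H3K27me3 region that began directly beside them. A region on chromosome 14 (37910835 to 37912115) was 92.1% covered from within and had an H3K27me3 region 0 bp from 1 end, yet neither end was covered. In all, 19 one-ended regions owed their covered end to 10 bp or less, and 14 had a free end within 10 bp of H3K27me3.

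The H3K27me3 region over the covered end was mostly about as long as a promoter and lay more inside than outside. Its width was 1412 bp at the median, with quartiles at 917.25 and 2199.5 bp, against 879 bp for all H3K27me3 regions of these chromosomes, although a wider region is more likely to meet an end. From the covered end it went inward by a median of 844 bp and outward by a median of 480 bp (interquartile range 172 to 962.75 bp). In 1814 of 2870 cases (63.2%, 95% interval 61.4 to 65.0%) the inward part was the longer. In 485 cases (16.9%) the H3K27me3 region stopped within 100 bp of the covered end, and in 7 it stopped exactly there. It went more than 5000 bp past the end in 57 cases (1.99%), and the longest reach was 17835 bp. The top score of the deposited list, 3100 or above, was reached by the H3K27me3 region over 250 of the covered ends (8.71%, 7.73 to 9.80%), against 2.57% of all H3K27me3 regions of these chromosomes. These shares were not compared at equal width of the H3K27me3 regions.

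Beyond that region, H3K27me3 often went on in further regions. H3K27me3 regions were joined into domains over gaps of up to 3 kb, and the domain then reached a median of 1702.5 bp past the covered end (interquartile range 353.25 to 6679 bp). It reached over 10 kb in 527 cases (18.4%, 95% interval 17.0 to 19.8%) and over 50 kb in 63 (2.20%, 1.72 to 2.80%). In 931 cases (32.4%, 30.8 to 34.2%) the domain was the H3K27me3 region itself, with no other within 3 kb of it. The 2870 regions lay in 2672 such domains, 147 of which held 2 or more of them.

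**Figure D1:**
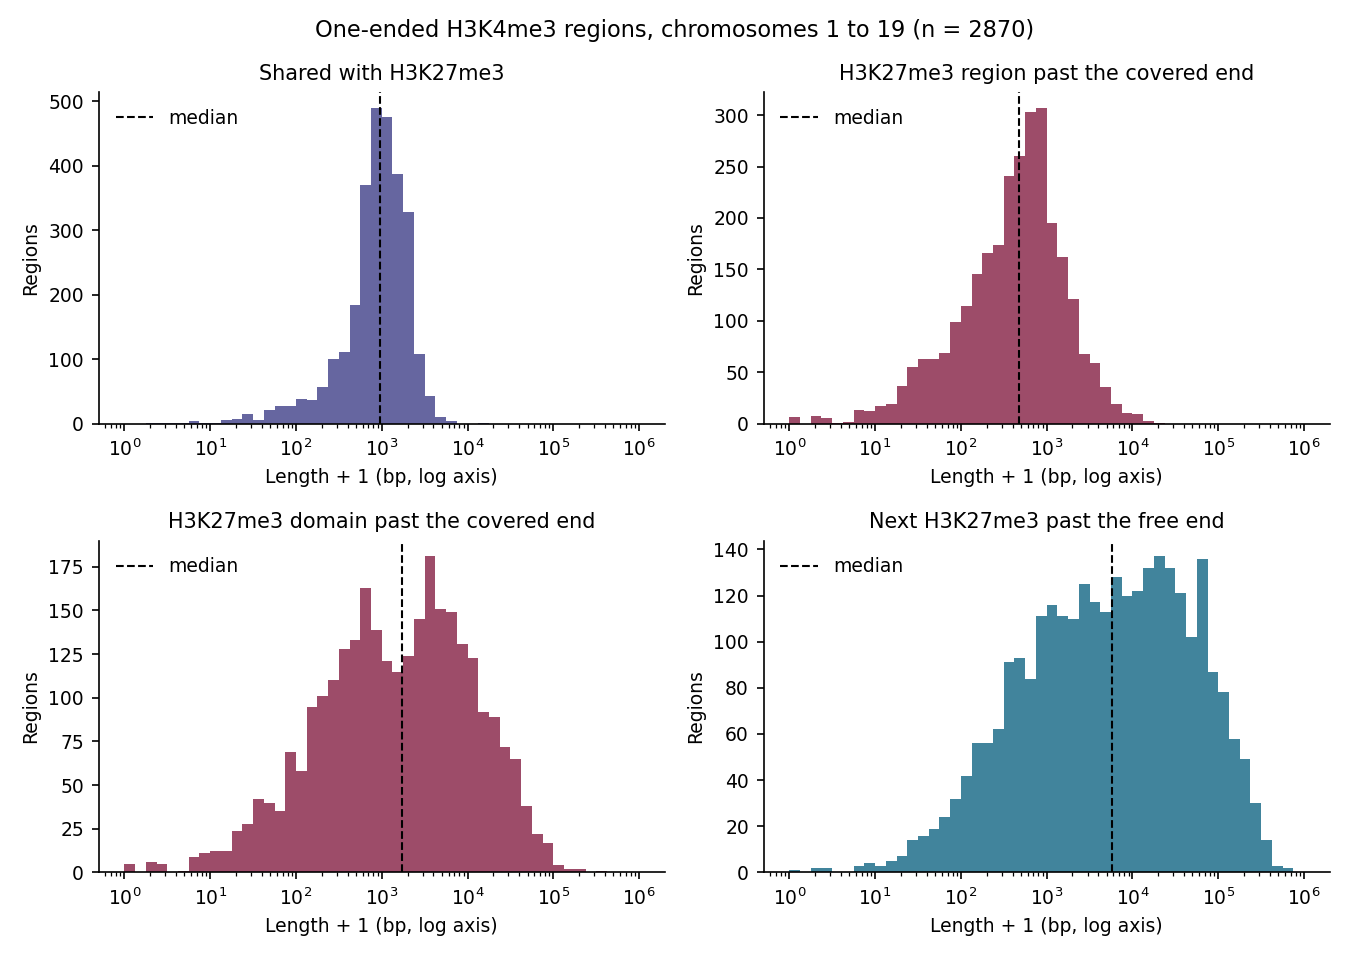
Histograms of 4 lengths in base pairs, plus 1, on log axes, each over the 2870 one-ended H3K4me3 regions: the length shared with H3K27me3, how far the H3K27me3 region and the joined H3K27me3 domain reach past the covered end, and the distance from the free end to the next H3K27me3 region. Dashed lines are medians, at 960.5, 480, 1702.5 and 5834.5 bp before adding 1; the domain panel has a dip near its median, and domains depend on the joining distance of 3 kb.

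The one-ended regions were of 2 kinds in relation to these domains. In 1831 (63.8%, 95% interval 62.0 to 65.5%) the domain ended inside the H3K4me3 region, which thus lay at the domain's edge. In 1039 (36.2%, 34.5 to 38.0%) the domain also went on past the free end, so the free end lay in a gap inside the domain. The 1831 edge regions were a mixed group. For 931 of them the domain was a single H3K27me3 region, and for 221 it reached 10 kb or more past the covered end. Edge regions were 1831 bp wide and 63.3% covered at the median. Those inside a domain were 1390 bp wide and 78.6% covered, and the next H3K27me3 past their free end was 558 bp away at the median, against 19027 bp for edge regions. That distance follows in part from the joining distance that separates the kinds.

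H3K27me3 was also near on the free side in many cases. The next H3K27me3 region past the free end was a median of 5834.5 bp away (interquartile range 973.25 to 29685 bp). It lay within 1 kb for 727 regions (25.3%) and within 10 kb for 1667 (58.1%, 56.3 to 59.9%). It was more than 100 kb away for 234 (8.15%, 7.21 to 9.21%). The median by chromosome ran from 2903.5 bp on chromosome 5 to 20969 bp on chromosome 14.

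The free-side distance was set beside that of uncovered ends of other H3K4me3 regions, as a description with no test. The same H3K27me3 list chose all the classes, so nearer H3K27me3 is in part built into them. The 13985 regions with H3K4me3 only had a median of 31126.5 bp over both ends. The distance past the free end was 0.189 times that (mean over chromosomes of the difference in median log10 distance plus 1 bp, turned into a ratio), and it was higher on 0 of 19 chromosomes. Regions with H3K27me3 wholly inside had a median of 18698 bp, and the ratio was 0.317 (higher on 0 of 19 chromosomes).

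A further comparison took 1217 H3K4me3-only regions with H3K27me3 within 1 kb of an end and measured past the other end. Where both ends were that close, the farther one was used, and the region counts as within 1 kb with either end. Their median distance was 12200 bp, and 9.53% had H3K27me3 within 1 kb on that other side as well, against 25.3% of the one-ended regions. The ratio was 0.511 (SD of the log10 difference 0.245 over 19 chromosomes, higher on 3 of 19), again with no test, since these regions were required to have no H3K27me3 inside. The value depended on the setting. With only H3K27me3 regions of score 100 or more it was 0.792, and with H3K27me3 regions joined over 3 kb it turned to 1.23. Joining takes away every gap of 3 kb or less between H3K27me3 regions, and 1039 of the 2870 free ends (36.2%) lay in such a gap.

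**Figure D2:**
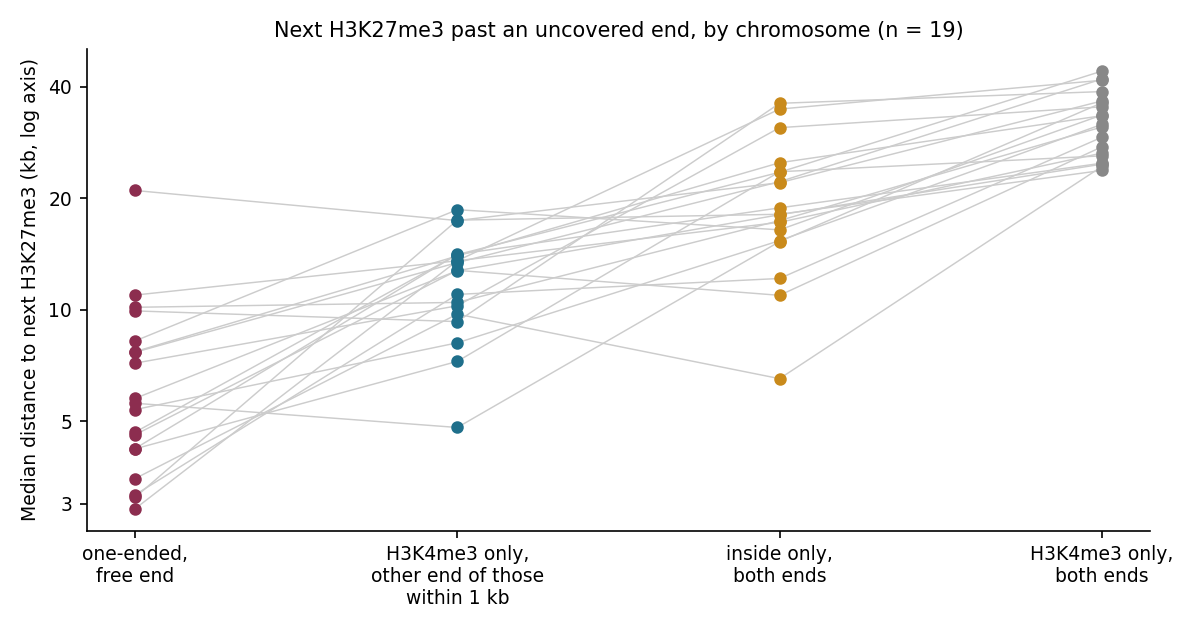
Median distance in kb (log axis) from an uncovered end to the next H3K27me3 region, 1 point per chromosome (n = 19) and 4 kinds of end, with grey lines joining the same chromosome. Points of the one-ended regions run from 2903.5 to 20969 bp and lie above those of the closely flanked H3K4me3-only regions on 3 of 19 chromosomes; ends of all H3K4me3-only regions run from 23748 to 44008 bp.

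Base pairs outside the regions gave the same picture of a steep and a shallow side. In the first 250 bp past the covered end 82.0% of base pairs lay in H3K27me3 regions, falling to 32.5% ± 7.73 (SD over 19 chromosomes) between 1 and 2 kb. Between 5 and 10 kb it was 21.8% ± 5.66. Past the free end the values were 5.64% in the first 250 bp, 20.6% ± 5.44 between 1 and 2 kb, and 16.5% ± 4.09 between 5 and 10 kb. The low value next to the free end follows from the rule. Between 50 and 100 kb the values were 14.3% ± 3.59 past the covered end and 14.1% ± 3.27 past the free end. Both were above the 9.31% ± 2.78 at that distance from H3K4me3-only regions. These are descriptions, with no test, since the rule used the same H3K27me3 list.

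**Figure D3:**
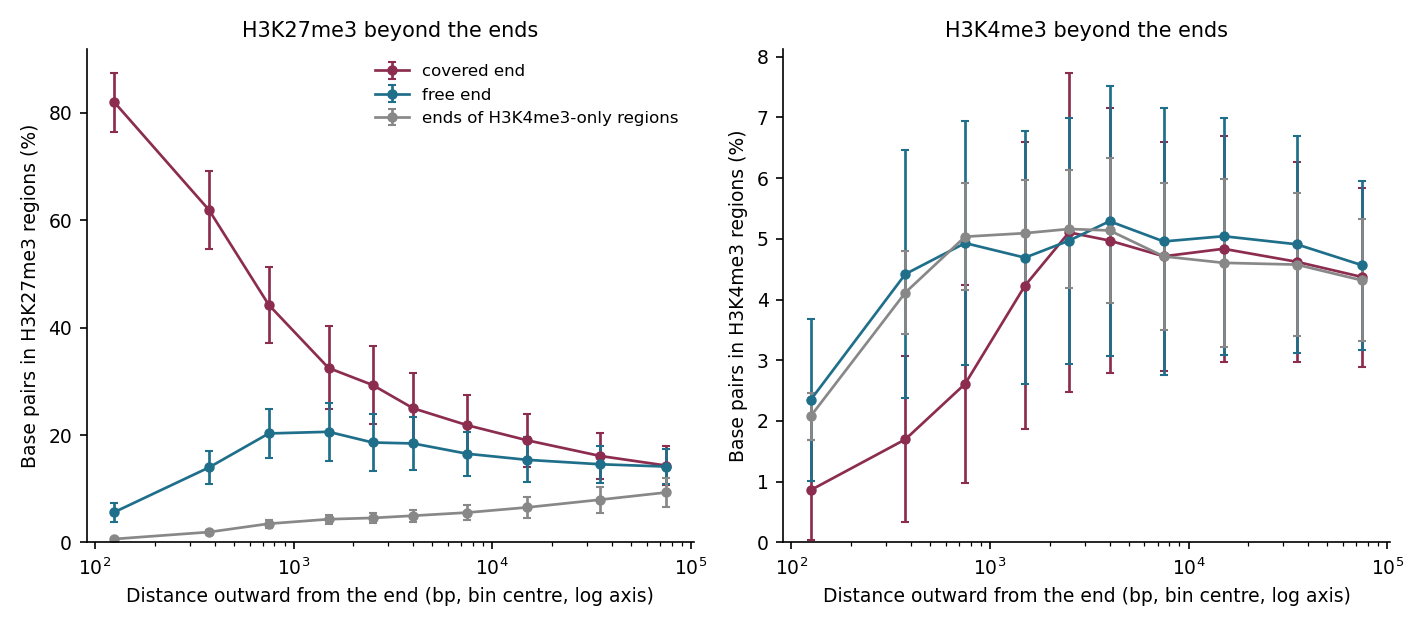
Share of base pairs in H3K27me3 regions (left) and in other H3K4me3 regions (right) against distance outward in base pairs (bin centres, log axis) from the covered end, the free end and both ends of H3K4me3-only regions; error bars are SDs over 19 chromosomes. H3K27me3 falls from 82.0% to 14.3% past the covered end and stays at 20.6% or below past the free end, while H3K4me3 in the first bins is lower past the covered end.

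The next H3K4me3 region was usually far away on either side. Its median distance was 44224 bp past the covered end and 39439 bp past the free end, and 1864 regions (64.9%, 95% interval 63.2 to 66.7%) had no other H3K4me3 region within 10 kb on either side. The nearer of the neighbours was on the covered side in 48.3% of 2865 regions (mean over chromosomes 48.2% ± 4.26 SD, over 50% on 6 of 19). The difference from 50% did not pass the threshold of 0.05 (two-sided sign-flip permutation test, p = 0.07). With H3K27me3 regions of score 100 or more only, the share was 47.8% and passed the threshold (permutation test, p = 0.014). When regions whose nearest neighbour lay within 1 kb were left out it was 49.5% (permutation test, p = 0.66).

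At short range the sides differed. Another H3K4me3 region lay within 1 kb past the covered end of 92 regions (3.21%, 95% interval 2.62 to 3.92%) and within 1 kb past the free end of 166 (5.78%, 4.99 to 6.70%). Over all ends of H3K4me3 regions on these chromosomes the share was 5.45%. The covered side was thus below that background and the free side close to it. Covered ends of other classes came nearer to it, at 5.12% for wholly covered regions and 4.64% for both ends covered with a gap. Uncovered ends stood at 4.06% for H3K27me3 inside only and 5.89% for H3K4me3 only. The difference between the covered and the free side of one-ended regions was -2.58 percentage points (mean over chromosomes -2.63 ± 2.17 SD, above 0 on 1 of 19, permutation test p = 2e-05). This comparison was added after the counts by distance had been seen. With H3K27me3 regions joined over 3 kb the difference was -0.529 points and was not called (permutation test, p = 0.2). Within 10 kb the shares were 19.9% and 22.2%. Whether regions this close were called as pieces of a longer H3K4me3 region was not tested.

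**Figure D4:**
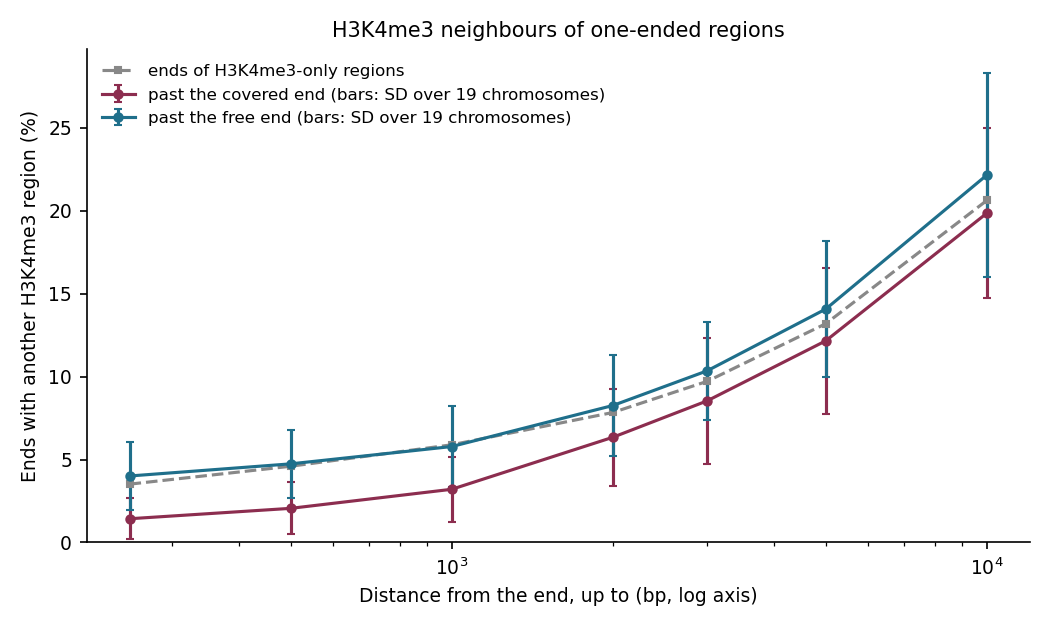
Share of ends that have another H3K4me3 region within the distance on the x axis (bp, log axis), for the covered and the free ends of the 2870 one-ended regions (error bars are SDs over 19 chromosomes) and for both ends of H3K4me3-only regions. The curve of the covered ends runs below the other curves, at 3.21% against 5.78% within 1 kb.

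The close neighbours carried H3K27me3 more often on the covered side. Of the 92 within 1 kb past the covered end 82 shared base pairs with H3K27me3 (89.1%), and in 67 (72.8%, 95% interval 63.0 to 80.9%) the end that faced the one-ended region was itself covered. Of the 166 past the free end 96 carried H3K27me3 (57.8%), and in 14 (8.43%, 5.09 to 13.7%) the facing end was covered. From over 1 kb to 10 kb the facing end was covered in 41.6% of 478 neighbours on the covered side and in 26.2% of 470 on the free side. Over 10 kb away it was covered in 27.2% of 2297 and 22.9% of 2232. Of all H3K4me3 regions on these chromosomes, 66.3% shared no base pair with H3K27me3. Both ends were covered in the 9.76% wholly covered and the 2.81% with a gap, and 1 end in 13.6%. Neighbours share the local H3K27me3 with the regions that chose them, so these shares carry no test. Where a free end had a one-ended neighbour within 1 kb, the pair could be counted from both sides. Counted once, there were 42 such pairs, and in 32 of them the free ends faced each other, with H3K27me3 over both outer ends. The counts of neighbours above take each pair of one-ended regions from either member.

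A single H3K27me3 region reached from the covered end to the next H3K4me3 region in 110 cases (3.83%), and the joined domain did so in 426 (14.8%). In 23 cases the same H3K27me3 region lay over the facing ends of 2 one-ended regions and spanned the space between. At the median these linking regions were 2050 bp wide, and the median space between the H3K4me3 regions was 389 bp. The widest ran over 15546 bp on chromosome 12 (9576680 to 9592225) at the top score. It covered 1548 bp of the H3K4me3 region at 9576531 to 9578227 and 1253 bp of the one at 9590973 to 9592631, with 12745 bp between them. The next linked regions on chromosome 11 (3078576 to 3086896, 8321 bp) and chromosome 2 (25431047 to 25437372, 6326 bp), both also at the top score.

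The H3K4me3 score, which the rule did not use, placed one-ended regions between the other classes. At the top score of 3100 or above were 1137 of the 2870 (39.6%, 95% interval 37.8 to 41.4%), against 53.0% of all H3K4me3 regions on these chromosomes. The share was 14.3% of the 2060 wholly covered regions. It was 61.1% of the 1590 with H3K27me3 inside only and 60.7% of those with H3K4me3 only. The 593 regions with both ends covered and a gap stood at 47.9%, above the one-ended regions, though 89.3% covered at the median. They were 2215 bp wide at the median and were not among the tested classes. One-ended regions were thus 25.3 points above the wholly covered (SD of the difference 8.22 over 19 chromosomes, higher on 19 of 19). They were 21.5 points below those with H3K27me3 inside (a difference of -21.5, SD 6.25, higher on 0 of 19) and 21.1 points below those with H3K4me3 only (-21.1, SD 5.40, higher on 0 of 19). Each two-sided sign-flip permutation test over chromosomes gave an adjusted p of 1e-05, the smallest possible.

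Width moved with these differences. The median width was 1664 bp for one-ended regions (quartiles 1090 and 2462.5 bp), 1394.5 bp for wholly covered ones, 2145.5 bp for those with H3K27me3 inside and 2212 bp for those with H3K4me3 only. A wider region is harder to cover throughout, so width is bound up with the rule. None of the 564 one-ended regions under 1 kb was at the top score, while 426 of the 441 of 3 kb or more were (96.6%). The 3 tested classes were then weighted to the width classes of the one-ended regions (under 1, 1 to 2, 2 to 3 and over 3 kb). The differences shrank to 11.8, -8.97 and -8.27 points over all regions. The means over chromosomes were 13.1, -9.35 and -8.29, and each was still called (permutation test, adjusted p = 1.5e-05, 4e-05 and 1.5e-05). Where a class had no region of a given width on a chromosome, its weighting there left that width out. Width within a width class was not equalised, although the one-ended share went from 14.3% at 1 to 2 kb to 80.6% at 2 to 3 kb.

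Among the one-ended regions themselves, those with less H3K27me3 were more often at the top score, and this went with width. The share was 53.4% of the 942 regions covered over less than 50%, and 32.9% of the 1928 covered over 50% or more. The difference was 20.5 points, above 0 on 18 of 19 chromosomes. This comparison was chosen after the shares were seen. Covered share belongs to the rule and is the shared length divided by the width. The difference as counted is therefore a description with no test. In finer steps the share at the top score was 47.5% at under 10% covered, 57.6% at 10 to 25% covered and 28.5% at 90 to 100% covered. The median width was 1954, 2373.5 and 1456.5 bp in these steps. At equal width classes the shares were 39.8% and 39.0%, a difference of 0.791 points, with a mean over chromosomes of -0.154 (permutation test, p = 0.9). The difference by covered share was therefore not detectable at equal width classes, within which width still varied. Edge regions reached the top score in 46.3% of cases and regions inside a domain in 27.8%, and at equal width classes in 40.8% and 36.8%. Among edge regions the share was 35.6% where the domain was a single H3K27me3 region. It was 62.9% where the domain reached 10 kb or more past the covered end. At equal width classes these were 40.7% and 42.6%.

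**Figure D5:**
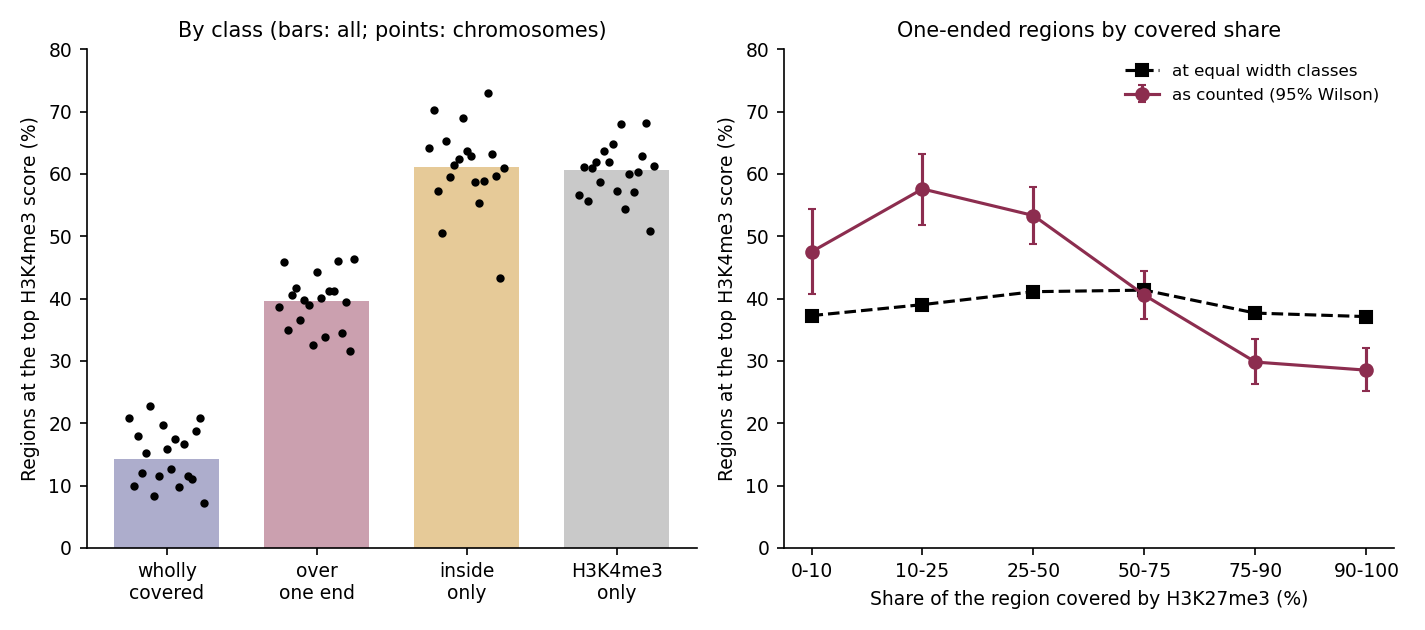
Left, share of H3K4me3 regions at the top score in 4 classes (bars are all autosomal regions of the class, points are the 19 chromosomes). Regions with both ends covered and a gap are not shown. Right, the same share among one-ended regions by covered share, as counted with 95% Wilson intervals and weighted to equal width classes: the counted share is 47.5% in the first step and goes from 57.6% in the second to 28.5% in the last, and the weighted one stays between 37.1% and 41.4%.

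The other properties along the covered share ran in the opposite direction on the H3K27me3 side. For width this is in part built in, since an H3K27me3 region that covers more goes farther inward. The H3K27me3 scores were not weighted by width. The H3K27me3 region over the covered end was 976 bp wide at the median where 10 to 25% of the H3K4me3 region was covered and 1942.5 bp where 90% or more was. It was at the top H3K27me3 score in 2.41% of the former and 18.8% of the latter. The outward reach went the other way, with a median of 652.5 bp in the former and 350.5 bp in the latter. Regions whose H3K27me3 reached 1 to 5 kb outward had their next H3K27me3 past the free end at a median of 2493 bp, against 15163 bp where the reach was under 100 bp. Across the 2870 regions, reach and free-side distance had a Spearman rho of -0.20, given as a description because all regions share the libraries.

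One-ended regions were found on every autosome in like proportion. Their number ran from 87 on chromosome 16 to 232 on chromosome 11, and their share of H3K4me3 regions was 13.7% ± 1.34 (SD over 19 chromosomes), from 11.5% on chromosome 3 to 16.2% on chromosome 14. Chromosome 14 also had the longest median overlap, 1355 bp, and the farthest free-side H3K27me3. Chromosome 16 had the shortest median overlap, 775 bp. The covered end was the one with the higher coordinate in 1402 regions and the one with the lower in 1468, or 48.9% and 51.1%. The difference from 50% did not pass the threshold (mean over chromosomes 48.6% ± 3.41 SD, over 50% on 6 of 19, permutation test p = 0.087). Without a series of 15 neighbouring one-ended regions on chromosome 4, all covered at the higher end, the share was 48.6% and passed it (permutation test, p = 0.045). Leaving out regions that are all covered at the higher end can only lower the share, so no lean to either end is read from it. Build coordinates have no biological direction, and the comparison is a check of the lists.

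The longest overlap was 13997 bp on chromosome 11 (3022657 to 3038153), a region of 15497 bp covered over 90.3%, both marks at the top score. In the same H3K27me3 domain a region at 3090864 to 3097353 shared 6097 bp. A region on chromosome 17 (3078953 to 3085582) shared 5927 bp. These 3 lay within 100 kb of the first called region of their chromosome, as did 14 one-ended regions in all. The others were on chromosome 5 (106881658 to 106889014), with 6873 bp shared, and on chromosome 7 (67006804 to 67015346), with 6761 bp shared at an H3K4me3 score of 1090 and with 31 bp left free.

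The other 4 of the 5 widest regions were long H3K4me3 regions with a small covered share. On chromosome 11 a region of 13624 bp (69220667 to 69234290) was covered over 457 bp at its higher end, and 13167 bp were free. On chromosome 17 a region of 13716 bp (86012802 to 86026517) was covered over 22.5%, and the H3K27me3 region over its lower end stopped 11 bp past it. A second on chromosome 17 (25700743 to 25711146, 10404 bp) was covered over 19.8%, and one on chromosome 8 (91559914 to 91569912, 9999 bp) over 11.1%. These last 3 held further H3K27me3 inside: the region over the covered end made up 2381 of 3084, 1107 of 2065 and 218 of 1108 shared bp. All 4 were at the top H3K4me3 score.

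Of the 5 domains that reached farthest, 2 were met at H3K4me3 regions below the top score. On chromosome 6 a region of 840 bp (99827689 to 99828528, score 609) lay inside a domain (99807079 to 100178281) that began before it and went on for 349.8 kb past its covered end. The next H3K27me3 past its free end was 969 bp away, and the next H3K4me3 past the covered end was 284.2 kb away. Also on chromosome 6, a region of 1047 bp (88055823 to 88056869, score 127) lay at the very edge of a domain that reached 216.1 kb, with no H3K27me3 for 50.6 kb past the free end. On chromosome 9 (107242022 to 107244076) the domain reached 190.0 kb past the covered end and the free side was empty for 21.4 kb. On chromosome 8 (125298674 to 125300745) it reached 162.0 kb, and on chromosome 2 (31804918 to 31808766) 141.0 kb. The last 3 H3K4me3 regions were at the top score, and on chromosome 2 253 bp of 3849 were covered.

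The longest free-side distances were found on 4 chromosomes. On chromosome 6 (110594677 to 110596746) no H3K27me3 was called for 634.2 kb past the free end. That region was 92.2% covered by an H3K27me3 region at the top score, and its H3K4me3 neighbours were 1462 kb away past the covered end and 1814 kb past the free end. The next were on chromosome 16 (85549812 to 85550862), at 606.5 kb, and on chromosome 8 (33993765 to 33996108), at 534.6 kb. Chromosome 10 held the other two, at 502.1 kb (28749466 to 28750662) and 458.6 kb (50145503 to 50147212). On chromosome 8 the free stretch was 19 bp of 2344. The domains of these 5 reached from 69 to 5043 bp past the covered end, on both sides of the median of 1702.5 bp over all one-ended regions.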

How the data were processed

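For each mark the authors deposited 1 list of called regions, giving position and score. Per the submitters' processing notes, Bowtie 1.1.2 was a tool and mm9 the build, and region names are those of MACS, per the deposited files. MACS version, threshold, control and read depth were not given in the sources used here. No scale is stated for the deposited score, which starts at 50.01 for H3K4me3 and 50 for H3K27me3 and piles up at 3100, and it was not compared between lists.

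H3K4me3 regions were classed by whether their first and last base pairs lay in an H3K27me3 region, and a base-by-base count gave 0 differences. Comparisons used a two-sided sign-flip permutation test over 19 chromosome values with 100000 resamples, called below 0.05, with Benjamini-Hochberg adjustment over 3 comparators. Class rule and test were tested on simulated data. Regions were named by rank (5 longest overlaps, 5 farthest domain reaches, 5 farthest free-side distances, 5 widest, up to 3 at each border of the rule, up to 3 linking regions). Members, lists and alternatives were chosen with earlier results of these data known. The planned test of free-side distances is given as values only, since the rule used the same H3K27me3 list. The planned test of the covered end against transcription was not run, since the gene table at hand is of another build. Tools were SciPy 1.17.1, pandas 2.3.3 and NumPy 2.4.6 under Python 3.11.15, with plots from matplotlib 3.10.9.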

Additional observations from a re-analysis of the deposited data

How the results depend on the processing

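The number of one-ended regions went from 2870 to between 2267 (H3K27me3 joined over 3 kb) and 2855. Of 84 recomputed values 77 were counted as keeping their direction and side of the threshold. That tally is a loose one. It includes the number of regions at 6 settings, which has no direction or threshold. It also includes the free-side distances, at 8 settings for each of 3 comparators, which are given here with no test. The top score by covered share is in it too, at 8 settings, and its difference as counted is given with no test. With H3K27me3 joined over 3 kb, the nearest H3K4me3 neighbour was on the covered side in 50.3% (permutation test, p = 0.94), the free-side ratio to closely flanked H3K4me3-only regions was 1.23, and the difference in neighbours within 1 kb was -0.529 points. With H3K27me3 scores of 100 or more, the neighbour share was 47.8% and that ratio 0.792. At equal width classes the difference in top score by covered share was 0.791 points. Without the evenly spaced series on chromosome 4 the covered end was the higher one in 48.6%. This passed the threshold (permutation test, p = 0.045, with a range over alternatives of 0.045 to 0.88). The cause was not tested for any of these. By construction, joining removes short gaps, and leaving out a series covered only at higher ends lowers that share. Joining H3K4me3 over 1 kb leaves no neighbour within 1 kb and gave no value there. That joining and the omission of the series were chosen after seeing the data. No paired analysis was possible because there was only 1 library of either mark. Depth is not known, so weak regions missed on a free end cannot be counted.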

Other observations

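A series of evenly spaced H3K4me3 regions on chromosome 4 held 15 one-ended regions in 52.2 kb (88400482 to 88452694). It was chosen after its values were seen, as the place of the domain with most one-ended regions, 11 in 35.8 kb. Of its 16 H3K4me3 regions 15 were one-ended, and all 15 were covered at the end with the higher coordinate. The remaining region had both ends covered with a gap. In this series 15 of 16 regions were at the top H3K4me3 score, and the median width was 1762.5 bp. From start to start, 13 of the 15 steps measured 2600 to 3300 bp, with a median of 2916 bp. The H3K27me3 regions over these ends had scores from 72.1 to 235, far from the top score, and covered 21.0 to 78.6% of each H3K4me3 region. The sequence there was not analysed here. Long runs were rare elsewhere. Runs were taken as consecutive one-ended regions within 10 kb of each other and covered on the same side. Of these, 2738 were a single region, 55 had 2 members, 1 had 3, 1 had 4, 1 had 7 and 1 had 8. Most regions thus had no neighbour that met these conditions. With this series counted, 133 one-ended neighbours lay over 1 and up to 10 kb past a covered end. Of them 63 faced it with their free end and so were covered on the same side. The runs of 7 and 8 together are those of this series, interrupted by the region with both ends covered.

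Outside the autosomes the same rule found 57 one-ended regions on X, 8.13% of its 701 H3K4me3 regions (95% Wilson interval 6.33 to 10.4%) and 39.9% of those on X that met H3K27me3. Their median covered share was 87.5%, the next H3K27me3 past the free end was 73.4 kb away at the median, and 15.8% were at the top score. On unplaced sequence 35 of 191 H3K4me3 regions were one-ended (18.3%, 13.5 to 24.4%). No comparison with the autosomes was tested.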
